A study of Mus musculus with 12 samples.

Results

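The serpin genes of the mouse were followed through RNA-seq libraries of embryonic heart chambers and of chamber-like parts of heart organoids (HOs). Members were all genes of the deposited expression table whose symbol starts with Serpin, a clade letter from a to i and a number, and whose name carried no bracketed number for a repeated locus. This gave 65 of the 26190 genes in the table. A gene was called expressed when its rounded fragment count was 10 or more in at least 3 of the 12 libraries, and 43 of the 65 serpin genes passed, of 16558 genes that passed in all. A further 15 had some count below this limit and 7 were at 0 in every library. The members were placed in classes from their known sites of action. There were 16 liver-type serpins (12 expressed), 4 matrix-linked serpins (4 expressed), 28 clade B serpins (18 expressed), 2 of the neuroserpin type (1 expressed) and 15 other clade A, E or G serpins (8 expressed).

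Serpins are a family of proteins in which most members block serine proteases by a one-time trap: the protease cuts an exposed loop, the serpin snaps shut, and the protease is left bound and distorted. Clade A members and their relatives are mostly plasma proteins made by the liver, among them alpha-1-antitrypsin (Serpina1 genes), antithrombin (Serpinc1), heparin cofactor II (Serpind1) and alpha-2-antiplasmin (Serpinf2). Matrix-linked members act at the cell surface and in connective tissue, and one of them, Serpinh1 (HSP47), is no protease inhibitor but the collagen chaperone of the endoplasmic reticulum. Clade B members lack a classical signal peptide and mostly work inside cells, where they guard against leaked granule and lysosomal proteases.

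The 12 libraries came from 4 groups of 3, all recorded as C57BL/6. They were atria and ventricles of the mouse embryonic heart at stage E11.5 (E11.5H), and, from HOs at day 13 of culture, the parts resembling atrium and the parts resembling ventricle. HOs were grown from embryoid bodies of mouse embryonic stem cells on a gelled laminin-entactin complex with FGF4, and with BMP4, the Wnt activator BIO and LIF in the later days, and the parts were cut apart before RNA was taken. The paper describes wild-type stem cell lines from C57BL/6 and from an F1 hybrid of C57BL/6 and JF1. The organoid cell line behind each library, and how many hearts or organoids were pooled into one, are not given in the sources used here. No group carried a genetic change, so no targeted gene could be used to check the labels.

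Depth ranged from 23971258 to 30540993 fragments per library, so that 3 fragments corresponded to between 0.0982 and 0.125 CPM (counts scaled to library size). The organoid libraries differed from the embryonic chambers, and from each other, in marker genes of other tissues. CPM with TMM scaling, summed over 10 cardiomyocyte markers, ran from 29900 to 41795 for E11.5H, 830 to 2618 in the atrium-like parts and 2983 to 8875 in the ventricle-like parts. The sum over 12 hepatocyte and visceral endoderm markers was 33.3 to 45.2 CPM for E11.5H, 30857, 1158 and 11411 CPM in atrium-like parts 1, 2 and 3, and 777, 265 and 11902 CPM in ventricle-like parts 1, 2 and 3. Fga was at 0 in the ventricles and Fgb in the atria of E11.5H, and no marker of the list was at 0 in every library of an organoid group. Atrium-like parts 1 and 3 and ventricle-like part 3 thus carried the most endodermal RNA. Atrium-like part 2 and ventricle-like parts 1 and 2 carried the most of 10 fibroblast markers (17137, 29927 and 11436 CPM, against 3159 to 6675 CPM in the other organoid libraries and 3348 to 5298 CPM in E11.5H). In bulk RNA, a larger share of a cell type and more RNA per cell of that type cannot be told apart. The part of these cell types in the serpin values below was not tested.

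Most serpin genes lie in clusters, which matters for reading the values. The files give positions on GRCm38/mm10, and 25 members (14 expressed) lie on chromosome 12 between 103616675 and 104414329, 16 clade B members (13 expressed) lie on chromosome 13 between 32842092 and 34002794, and 14 lie on chromosome 1. Several of the copies are similar enough to share reads. In the longest annotated coding transcripts, any pair of Serpina1a to Serpina1e was 96.3% to 98.5% identical over the aligned bases, Serpinb9f and Serpinb9g were 97.7% identical, and Serpinb9e and Serpinb9f were 95.8% identical, whereas Serpinb6a and Serpinb6b were 87.4% identical. Serpinb9c was less alike, at 77.2% to 79.9% identity with Serpinb9d, Serpinb9e, Serpinb9f and Serpinb9g, and Serpinb9h was not compared. Of the deposited serpin counts above 0, 37.0% were not whole numbers, close to the 36.8% of all counts above 0 in the table. How fragments were shared between copies is not given in the sources used here, so single values of the Serpina1 and Serpinb9 copies are uncertain, and the sums over Serpina1a to Serpina1e and over Serpinb9c to Serpinb9h are given beside them.

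The near identity extends in front of the genes, as the 5 Serpina1 copies show (RefSeq sequence, GRCm38.p6, minus strand of chromosome 12, 70 bases each, read in the direction of the gene). Capitals mark GTTAAT, the core letters of sites of the liver factor HNF1, which were picked after these windows had been read. The first capital lies 21, 26, 27, 16 and 78 bases before the annotated starts of Serpina1a, Serpina1b, Serpina1c, Serpina1d and Serpina1e, and the windows are chr12:103863625-103863694, chr12:103738200-103738269, chr12:103904962-103905031, chr12:103773634-103773703 and chr12:103956960-103957029.
Serpina1a: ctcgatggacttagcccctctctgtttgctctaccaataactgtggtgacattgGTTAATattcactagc
Serpina1b: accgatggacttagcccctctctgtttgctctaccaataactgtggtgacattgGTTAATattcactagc
Serpina1c: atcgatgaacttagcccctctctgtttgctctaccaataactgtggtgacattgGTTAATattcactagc
Serpina1d: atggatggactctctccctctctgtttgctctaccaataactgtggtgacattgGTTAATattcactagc
Serpina1e: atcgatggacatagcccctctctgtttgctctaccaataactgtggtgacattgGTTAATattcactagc
Of the 65 members, 54 had a RefSeq promoter window. In the 250 bases before the start, GTTAAT was found on either strand in 7 of 12 liver-type serpins (the 5 Serpina1 copies, Serpina3c and Serpina7), 3 of 26 clade B serpins (Serpinb3b, Serpinb3d and Serpinb8), 1 of 2 neuroserpin-type genes (Serpini2), 0 of 3 matrix-linked and 0 of 11 other clade A, E or G serpins, and in 7.49% of all 27025 genes with a window. A match is a description of letters, and the Serpina1 copies count as near repeats of one sequence.

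The Serpinb9 copies on the plus strand of chromosome 13 repeat one another in the same way. The 4 windows below start 190, 195, 205 and 194 bases before the annotated starts of Serpinb9e, Serpinb9d, Serpinb9f and Serpinb9g, and capitals in the last 3 mark bases that differ from Serpinb9e or are inserted relative to it. They are chr13:33249418-33249537, chr13:33192760-33192883, chr13:33323872-33323991 and chr13:33484596-33484715.
Serpinb9e: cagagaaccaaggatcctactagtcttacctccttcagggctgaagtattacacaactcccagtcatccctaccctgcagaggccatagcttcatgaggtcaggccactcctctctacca
Serpinb9d: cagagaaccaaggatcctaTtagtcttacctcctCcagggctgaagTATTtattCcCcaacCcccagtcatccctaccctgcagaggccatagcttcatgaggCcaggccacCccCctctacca
Serpinb9f: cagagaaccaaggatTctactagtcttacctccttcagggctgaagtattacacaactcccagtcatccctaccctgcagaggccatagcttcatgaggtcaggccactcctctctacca
Serpinb9g: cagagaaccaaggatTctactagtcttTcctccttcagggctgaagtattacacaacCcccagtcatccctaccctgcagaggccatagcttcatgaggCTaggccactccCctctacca
The Serpinb9f window differs from that of Serpinb9e by 1 capital base.

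Levels below are FPKM as deposited, fragments scaled to transcript length and library size, which allows genes to be set beside each other. In the embryonic heart the family was carried by one gene. Serpinh1 made up 74.2% to 77.9% of the summed serpin FPKM of the E11.5H libraries, and Serpine2 stood second in every one of them. In the organoid libraries Serpinh1 was still first, with 24.8% to 59.3%, and Serpine2 was second except in atrium-like part 1, where Serpinb1a was. The summed serpin level was 601 to 706 FPKM in E11.5H and 707 to 1557 FPKM in the organoids. The ranges nearly touched, at 705.8 FPKM in atria replicate 2 and 707.4 FPKM in atrium-like part 1. As a share of all FPKM they overlapped, at 0.121% to 0.165% in E11.5H and 0.163% to 0.387% in the organoids. The liver-type sum went from 0.108 to 0.444 FPKM in E11.5H to 54.6 to 114 FPKM in the organoids, but Serpina3n carried most of it in 3 of them. Without Serpina3n it was 47.5, 2.69 and 51.6 FPKM in the atrium-like and 2.35, 1.30 and 62.2 FPKM in the ventricle-like parts. The clade B sum went from 34.4 to 45.1 FPKM to 140 to 355 FPKM. The matrix-linked sum was 549 to 640 FPKM in E11.5H and spread from 248 to 1173 FPKM in the organoids. By the limit of 10 fragments in at least 3 libraries, applied to the 6 E11.5H libraries alone, 16 of the 43 expressed serpins were expressed in the embryonic heart (37.2%, against 88.2% of all expressed genes), and none of the 12 liver-type ones was.

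**Figure D1:**
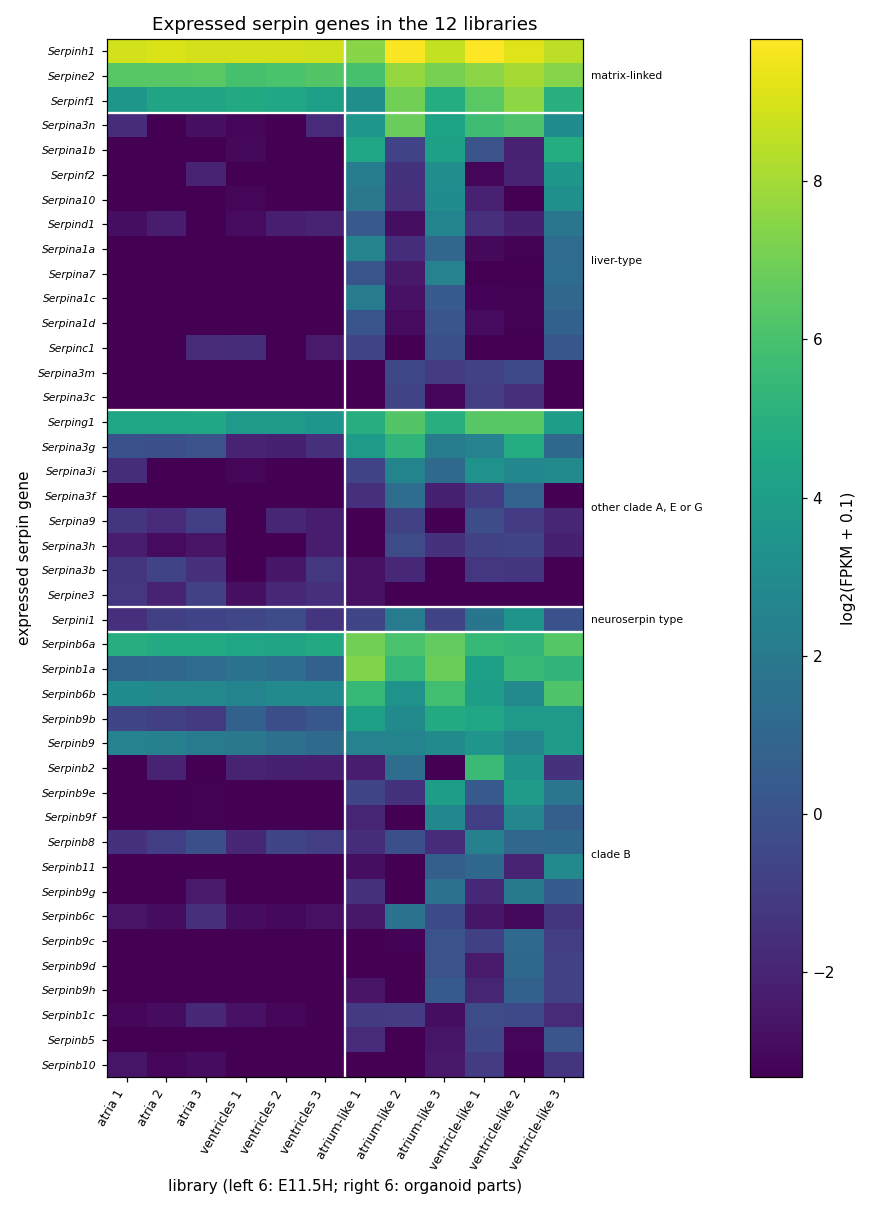
Level of 42 of the 43 expressed serpin genes (rows, by class and then by mean) in the 12 libraries (columns), as log2(FPKM + 0.1), with the E11.5H libraries left of the vertical line. Serpinh1 is the brightest row in every library, and the 12 liver-type rows are dark in all E11.5H libraries.

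Each organoid part was compared with its embryonic counterpart, each pair of chambers was compared within its tissue, and the difference between the chamber contrasts was tested over all 12 libraries. A gene was called when edgeR's quasi-likelihood test gave an adjusted p under 0.05, with Benjamini-Hochberg adjustment over all genes tested, and the log2 fold change was beyond 1 in size. Fold changes below are log2 values with their standard error (SE), n = 3 libraries per group, and adjusted p-values are from this test. Only genes with enough counts in the libraries compared were tested, so a gene near 0 in one group was tested only if it was high in the other.

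Atrium-like parts against atria gave 12 called serpins, all higher in the organoid parts. That is 12 of 24 tested, where 16% of all 15418 genes tested were higher and 8.81% lower. They included 4 clade B, 5 liver-type and 2 other clade A, E or G serpins. Of the 24, 9 did not reach the expression limit in the E11.5H libraries and could enter mainly through high organoid values, so the share is not a measure of how the family moved. The median log2 fold change over the 24, 3.19 against 0.06 over all genes tested, is raised by the same selection. Of the 15 tested that were expressed in E11.5H, 7 were called higher and 0 lower, with a median of 1.74. The share called and the median over all genes expressed in E11.5H were not computed for this test, so these values have no like background. The count of called serpins was 6, 6 and 5 without atria replicate 1, 2 and 3. It was 15 without atrium-like part 1, 19 without atrium-like part 2 and 6 without atrium-like part 3. The 15 and the 19 each held 2 serpins called lower, Serpinb12 and Serpine3 without part 1 and Serpinb12 and Serpina9 without part 2. Over all genes, 3821 were called in the main fit. Without atria replicate 1, 2 and 3 there were 1662, 1690 and 1726. Without atrium-like part 1, 2 and 3 there were 3726, 5495 and 2915. Serpina3g, Serpina3n, Serpinb1a, Serpinb6a and Serpinb9b were called in each of the 6 fits that left out 1 library, and every other call was lost in at least 1 of them.

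Ventricle-like parts against ventricles gave 19 called serpins of 23 tested, all higher in the organoid parts. The background was 11.6% of 15094 genes higher and 7.35% lower. They included 11 clade B, 1 liver-type, 1 neuroserpin-type and 3 other clade A, E or G serpins, and 8 of the 23 tested did not reach the expression limit in E11.5H. The median log2 fold change over the 23, 3.72 against 0.09 over all genes tested, is raised by this selection too. Of the 15 tested that were expressed in E11.5H, 11 were called higher and 0 lower, with a median of 2.12. Here too the share and median over all genes expressed in E11.5H were not computed. The count of called serpins was 6, 5 and 5 without ventricles replicate 1, 2 and 3, and 11 with a replicate block. Over all genes, 2859 were called in the main fit, and 1201, 1116 and 1212 without ventricles replicate 1, 2 and 3. With the replicate block 2003 genes were called. Serpina3i, Serpina3n, Serpinb1a, Serpinb9b and Serpine2 were called in each of the 6 fits that left out 1 library, and every other call was lost in at least 1 of them. The 2 comparisons share no library, but the paper describes cutting organoids and hearts into both parts. They may thus share organoids, hearts or cultures and are not taken as independent. In both, 7 serpins were called, among them Serpina3g, Serpina3n, Serpinb1a, Serpinb6a, Serpinb9b and Serping1.

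**Figure D2:**
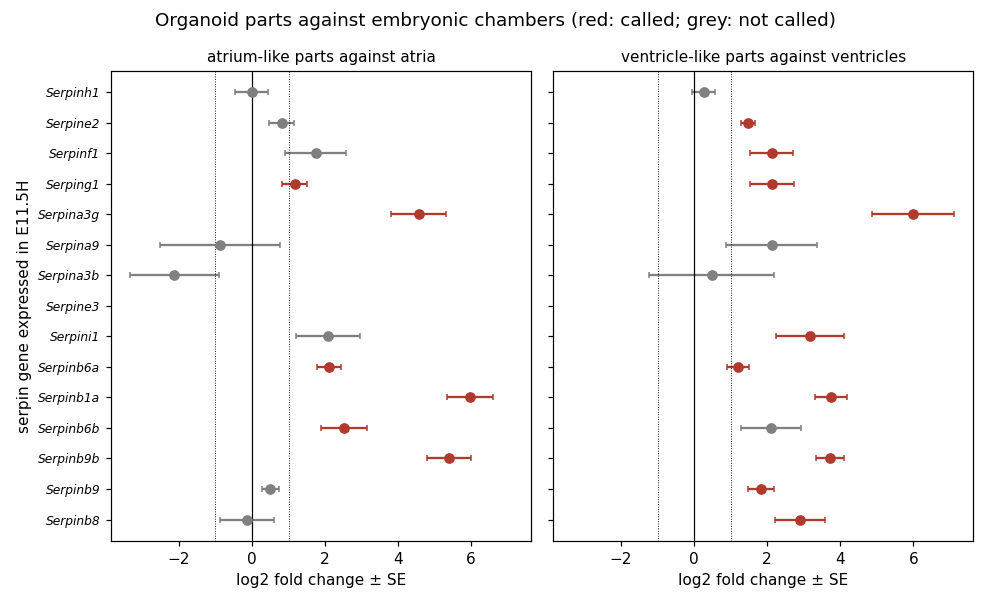
Log2 fold change with SE (n = 3 per group) of 15 serpin genes expressed in E11.5H, for atrium-like parts against atria (left) and ventricle-like parts against ventricles (right), red where called and grey where not, with dotted lines at the fold limit of 1. Serpine3 was not tested in either, Serpinh1 sits near 0 in both, and every red point is to the right of the limit.

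Between the chambers themselves few serpins differed. Atria against ventricles of E11.5H gave 1 called serpin of 16 tested, Serpina3g, where 2.92% of 14536 genes tested were higher and 1.97% lower in atria. Within HOs, comparing atrium-like with ventricle-like parts gave 0 called serpins of 42 tested, and 0% of 15703 genes were called there by edgeR. At an unadjusted p under 0.05 there were 3 serpins, and the DESeq2 Wald test called 59 genes and 0 serpins. The interaction of chamber and tissue called 0 of 43 serpins and 0.152% of 16494 genes, with 6 serpins at an unadjusted p under 0.05 and 0 serpins (of 444 genes) called by DESeq2. How many of all genes had an unadjusted p under 0.05 was not counted. The 3 and the 6 therefore have no background and are not a result about the serpins. For 14 of the 43 all E11.5H libraries were at 0, and the interaction had no embryonic difference to compare. Leaving out atrium-like part 2 gave 1 called serpin, Serpinb1a, in the interaction, among 216 called genes.

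Among the matrix-linked serpins, Serpinh1 (chr7:99345375-99353239, minus strand) was even across the embryonic libraries and uneven across the organoids. It was at 475, 536 and 503 FPKM in the atria and at 488, 498 and 455 FPKM in the ventricles of E11.5H. It was at 175, 832 and 396 FPKM in the atrium-like parts and at 891, 579 and 365 FPKM in the ventricle-like parts. The organoid values lay on both sides of the embryonic ones, so the groups overlapped in range and the log2 fold change was -0.01 ± 0.45 (adjusted p = 0.991) in the atrium-like and 0.26 ± 0.32 (adjusted p = 0.562) in the ventricle-like parts. Between atria and ventricles it was 0.00 ± 0.06 (adjusted p = 0.993). The 3 organoid libraries above the embryonic range, atrium-like part 2 and ventricle-like parts 1 and 2, were those with the most fibroblast RNA. Over 10 collagen genes whose chains Serpinh1 helps to fold, the summed level was 3530 to 4611 CPM in E11.5H and 6964, 19681 and 7657 CPM in atrium-like parts 1, 2 and 3. In ventricle-like parts 1, 2 and 3 it was 29350, 11308 and 4092 CPM, and so the same 3 libraries led. Both lists hold Col1a1, Col1a2 and Col3a1. The 7 fibroblast markers that are not collagens summed to 1695 to 2198 CPM in E11.5H, 873, 4147 and 1473 CPM in the atrium-like and 4513, 3116 and 769 CPM in the ventricle-like parts, again with these 3 libraries on top. Of the 10 collagen genes, 5 were called higher and 0 lower in the atrium-like parts, and 3 higher and 1 lower (Col2a1) in the ventricle-like parts.

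Serpine2 (protease nexin-1, an inhibitor of thrombin and urokinase in the matrix, chr1:79794321-79858665) was at 83.6, 83.7 and 87.2 FPKM in the atria and 63.0, 67.4 and 77.3 FPKM in the ventricles of E11.5H. It was at 186, 263 and 173 FPKM in the ventricle-like parts, all above every embryonic library, and was called there with a log2 fold change of 1.48 ± 0.19 (adjusted p = 0.00417). In the atrium-like parts it was at 63.3, 209 and 140 FPKM, where atrium-like part 1 fell among the ventricles, and 0.81 ± 0.34 was not called (adjusted p = 0.111). Serpinf1 (PEDF, an inhibitor of vessel growth with no protease target, chr11:75410029-75422623) was at 12.1, 20.0 and 19.9 FPKM in the atria and 25.3, 23.6 and 16.7 FPKM in the ventricles. In the ventricle-like parts it was at 87.2, 187 and 32.6 FPKM, a log2 fold change of 2.12 ± 0.59 (adjusted p = 0.0408). Without ventricle-like part 2 it was 1.39 (adjusted p = 0.0553), and the call held in the fit without ventricle-like part 3 and in no other that left out 1 library. In the atrium-like parts it was at 9.03, 129 and 28.0 FPKM, and 1.74 ± 0.83 was not called (adjusted p = 0.156). Serpinf1 and Serpinh1 were thus both lowest in atrium-like part 1, which fell below every embryonic library for each of them.

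**Figure D3:**
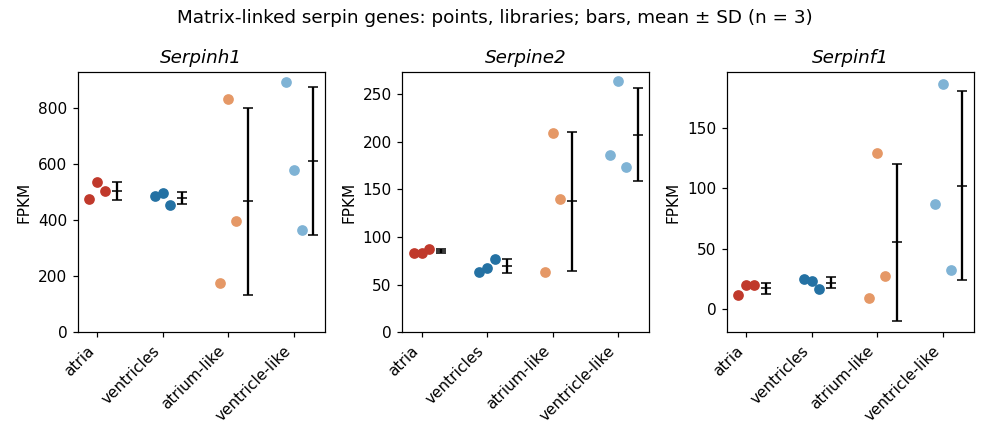
FPKM of 3 matrix-linked serpins in each library (points) with the group mean and SD (bars, n = 3), on a separate linear scale for each gene. Serpinh1 spans 175 to 891 FPKM in the organoids around 455 to 536 FPKM in E11.5H, and all 3 ventricle-like points of Serpine2 lie above the E11.5H points.

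The liver-type serpins were near absent from the embryonic heart and fell into contrasting patterns in the organoids. The sum over Serpina1a to Serpina1e (alpha-1-antitrypsin, the inhibitor of neutrophil elastase) was 0 FPKM in 5 E11.5H libraries and 0.0219 FPKM in ventricles replicate 1. It was 36.7, 0.890 and 21.9 FPKM in atrium-like parts 1, 2 and 3 and 0.999, 0.149 and 33.8 FPKM in ventricle-like parts 1, 2 and 3. Atrium-like parts 1 and 3 and ventricle-like part 3 were therefore far above the others in this sum, whose highest was 0.999 FPKM, and they are the 3 libraries with the most hepatocyte and visceral endoderm RNA. Serpina1b was the main copy, with 21.3, 0.534 and 17.7 FPKM in the atrium-like parts and 0.932, 0.134 and 27.6 FPKM in the ventricle-like parts. Taking 3 fragments per library as the limit for the atria of E11.5H, where it had no fragment, Serpina1b was at least 242-fold higher in the mean of the atrium-like parts (adjusted p = 0.0266). Taken alone, atrium-like part 2 gives a bound of 8.29-fold, and the mean without atrium-like part 1 gives 156-fold. Serpina1a, at 5.65, 0.227 and 1.88 FPKM in the atrium-like parts, was at least 66.2-fold higher in the mean (adjusted p = 0.0282), with 4.78-fold for atrium-like part 2 alone and 24.5-fold without atrium-like part 1. The calls of Serpina1b and Serpina1a were each lost in at least 1 of the fits that left out 1 library. Serpina1e, which did not reach the expression limit, had 4.74 FPKM in atrium-like part 1 and at most 0.362 FPKM elsewhere.

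Other plasma serpins had their highest values in the same 3 libraries, though not in the same order. Serpina10 (the inhibitor of factor Xa that works with protein Z) was at 3.52, 0.238 and 8.32 FPKM in the atrium-like and 0.133, 0 and 9.39 FPKM in the ventricle-like parts, and the mean of the atrium-like parts was at least 81.2-fold higher than the atria, where it was at 0 (adjusted p = 0.0281). For atrium-like part 2 alone the bound is 4.14-fold. Without atrium-like part 3 the mean gives 40.7-fold, and the call was lost in that fit (adjusted p = 0.0734). Serpinf2 (the plasmin inhibitor) was at 4.65, 0.283 and 8.50 FPKM in the atrium-like and 0.0139, 0.140 and 12.2 FPKM in the ventricle-like parts. Its log2 fold change over the atria, of which replicate 3 held 10 fragments and the others 0, was 6.78 ± 1.90 (adjusted p = 0.0378). It lay between 6.01 (without atrium-like part 3) and 11.47 (without atria replicate 3), and the call held in the fit without atrium-like part 2 and in no other that left out 1 library. Serpind1 (heparin cofactor II) was at 1.18, 0.0404 and 5.99 FPKM in the atrium-like and 0.251, 0.126 and 3.49 FPKM in the ventricle-like parts, with 0 to 0.139 FPKM in E11.5H. Serpind1 overlaps Pi4ka on the opposite strand in GENCODE M21, and whether strand was used in counting is not given in the sources used here. The 8 expressed members Serpina1a, Serpina1b, Serpina1c, Serpina1d, Serpina10, Serpinc1, Serpinf2 and Serpina7, together with Serpind1, Serpinb6a and Serpinb6b, had their highest 3 organoid values in atrium-like parts 1 and 3 and ventricle-like part 3. That is 11 of 43 expressed serpins (25.6%), against 18.2% of all expressed genes. Serpina1c, Serpina1d and Serpina7 reached the expression limit in these 3 libraries alone, so their place was set by that limit. The Serpina1 copies among the 11 are near repeats and not separate counts, so this share is not a result about the family. In the comparison of ventricle-like parts with ventricles, Serpina3n was the only liver-type serpin with enough counts to be tested.

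Serpina3n (an acute-phase inhibitor of granzyme B and cathepsin G, placed with the liver-type serpins for its plasma origin) did not follow them. It was the most abundant of the class, at 11.7, 111 and 19.3 FPKM in the atrium-like and 52.3, 70.6 and 8.21 FPKM in the ventricle-like parts. In E11.5H it was at 0.217, 0 and 0.0443 FPKM in the atria and 0.0150, 0 and 0.211 FPKM in the ventricles. All 6 organoid libraries were above all E11.5H libraries, with log2 fold changes of 9.08 ± 1.42 (adjusted p = 0.00714) and 9.09 ± 1.41 (adjusted p = 0.00753), resting on at most 16 fragments per E11.5H library. Leaving out 1 library kept both calls and moved the values from 7.64 (without atrium-like part 2) to 11.02 (without atria replicate 1) and, in the ventricle-like parts, from 8.46 to 12.12, reached when ventricles replicate 2 or 3 was left out. Its highest 3 organoid values were in atrium-like part 2 and ventricle-like parts 1 and 2, the libraries low in the Serpina1 sum. Serpina3c and Serpina3m, the other expressed Serpina3 genes of the class, shared these 3 libraries and were at 0 in atrium-like part 1 and ventricle-like part 3. In all, 13 of the 43 expressed serpins (30.2%) were highest in these 3 libraries, against 19.4% of all expressed genes, and they included Serpinh1, Serpine2, Serpinf1, Serping1 and Serpini1. Of the 13, Serpina3b, Serpina3c, Serpina3f, Serpina3h, Serpina3m and Serpina3n lie in the same cluster on chromosome 12. This share is thus not a result about the family. Serpina3c reached the expression limit in these 3 libraries alone, so its place was set by that limit. Macrophage markers were also high there (1149, 621 and 883 CPM summed over 10 genes, with 421, 165 and 173 CPM in atrium-like parts 1 and 3 and ventricle-like part 3, and 59.9 to 117 CPM in E11.5H).

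**Figure D4:**
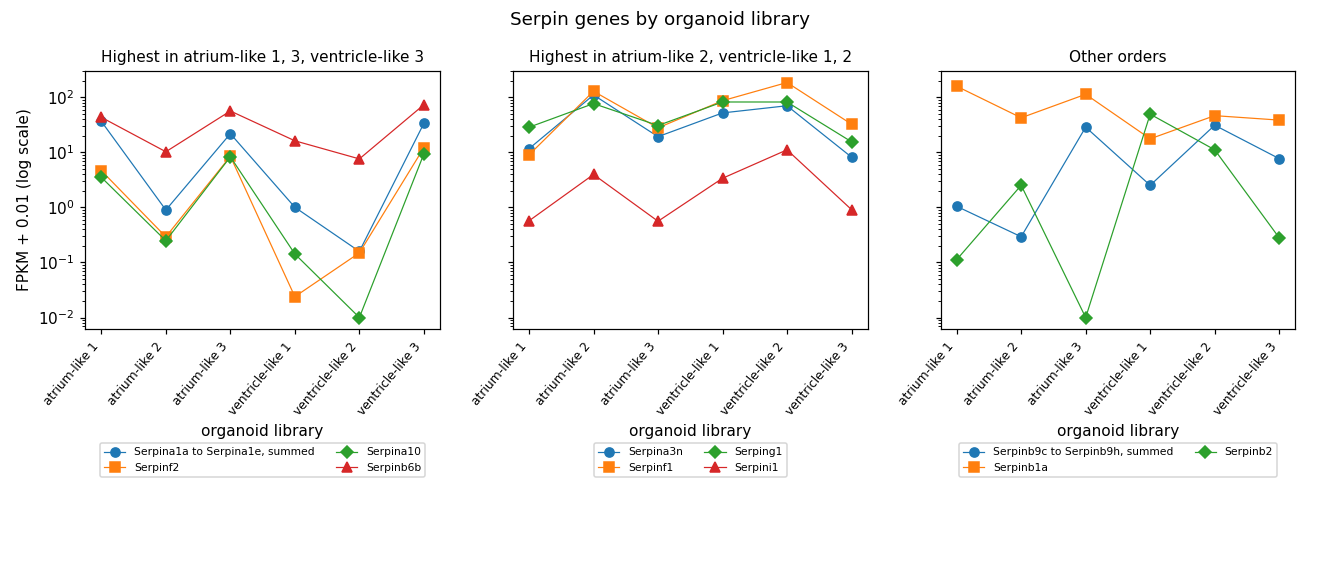
FPKM + 0.01 on a log scale in the 6 organoid libraries for 11 serpin genes or summed copies, in panels by the libraries that hold the highest 3 values (lines join values of one gene and carry no order). The Serpina1 sum runs from 36.7 FPKM in atrium-like part 1 to 0.149 FPKM in ventricle-like part 2, where Serpina3n is at 70.6 FPKM.

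The only serpin called between the embryonic chambers was among the remaining clade A and G serpins. Serpina3g (Spi2A, an inhibitor of cathepsins in blood cells, chr12:104214454-104241944) was at 0.894, 0.815 and 0.934 FPKM in the atria and 0.137, 0.122 and 0.238 FPKM in the ventricles of E11.5H, without overlap. The log2 fold change was 2.32 ± 0.57 (adjusted p = 0.0237), and the call held in the fit without ventricles replicate 3 but not in the other 5 that left out 1 library (adjusted p from 0.0573 to 0.0862). It shares its interval with Serpina3f on the same strand, whose transcript was 90.4% identical. In the organoids it was at 14.3, 38.9 and 4.54 FPKM in the atrium-like and 5.55, 27.2 and 2.06 FPKM in the ventricle-like parts. These were all above the embryo, with log2 fold changes of 4.56 ± 0.76 (adjusted p = 0.00845) and 6.00 ± 1.13 (adjusted p = 0.0132), and the organoid parts overlapped each other. The call in the ventricle-like parts was lost without any of the ventricles (adjusted p from 0.0597 to 0.0728). The fold changes dropped to 3.72 without atrium-like part 2 and to 4.44 without ventricle-like part 2.

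Serping1 (C1 inhibitor, which stops the first complement protease and plasma kallikrein, chr2:84765360-84775429) was at 21.8, 21.5 and 23.1 FPKM in the atria and 12.9, 13.7 and 11.8 FPKM in the ventricles of E11.5H. This had the smallest adjusted p of the 16 serpins tested between the chambers, 0.72 ± 0.10 (adjusted p = 0.00117), but it lay under the fold limit and was not called. Of 10 macrophage markers 5 were called higher and 1 lower in the embryonic atria, though their summed levels overlapped (59.9 to 117 CPM in atria and 72.4 to 93.6 CPM in ventricles). In the organoids Serping1 was at 28.7, 77.3 and 30.9 FPKM in the atrium-like parts, all above the atria (1.16 ± 0.34, adjusted p = 0.0418). It was at 82.6, 82.6 and 15.6 FPKM in the ventricle-like parts, all above the ventricles (2.14 ± 0.60, adjusted p = 0.0411), and ventricle-like part 3 fell between ventricles and atria. The first of these calls was lost without any of the atria (adjusted p from 0.123 to 0.138) and without atrium-like part 2, where the log2 fold change was 0.68. The second held in the fit without ventricle-like part 3 and in no other that left out 1 library (adjusted p from 0.0755 to 0.138).

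Serpina3i, another member of the Serpina3 cluster, went from 0.0142, 0 and 0 FPKM in the ventricles to 10.2, 6.79 and 7.32 FPKM in the ventricle-like parts. This is 1735 fragments against 1, a ratio of 1571 with an exact 95% counting interval from 282 to 62074, and it was called (adjusted p = 0.00136). In the atrium-like parts it was at 0.554, 6.02 and 2.22 FPKM and was not called (5.25 ± 1.76, adjusted p = 0.0644). Serpine3 had no organoid value above the embryo and values below it in 5 organoid libraries, with 2 to 22 fragments in each E11.5H library and 2, 0, 0, 0, 0 and 0 in the organoids, and it overlaps Ints6 on the opposite strand. Serpinb12, under the expression limit, had 5, 56 and 46 fragments in the atria and at most 9 in any other library.

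Clade B was the largest class, with 18 expressed members. Serpinb1a (an inhibitor of neutrophil proteases, chr13:32842092-32851185) was at 1.77, 1.92 and 2.26 FPKM in the atria and 3.06, 2.55 and 1.59 FPKM in the ventricles of E11.5H. It was at 160, 42.7 and 114 FPKM in the atrium-like parts (5.97 ± 0.63, adjusted p = 0.0028) and at 17.7, 46.6 and 38.7 FPKM in the ventricle-like parts (3.74 ± 0.43, adjusted p = 0.00336). All organoid libraries were above all embryonic ones, and the organoid parts overlapped in atrium-like part 2. Serpinb9b, a relative of Serpinb9 that overlaps the antisense gene Gm36099 (chr13:33027414-33040588), was at 0.577, 0.455 and 0.362 FPKM in the atria and 1.61, 0.791 and 1.06 FPKM in the ventricles. It was at 17.4, 7.41 and 26.3 FPKM in the atrium-like parts (5.40 ± 0.61, adjusted p = 0.00336) and at 21.9, 13.2 and 13.3 FPKM in the ventricle-like parts (3.72 ± 0.39, adjusted p = 0.00258).

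Serpinb6a (a broad inhibitor of intracellular trypsin-like proteases and cathepsin G, chr13:33917918-34002794) was the most abundant clade B gene in the embryo, at 28.5, 25.9 and 25.5 FPKM in the atria and 21.8, 19.9 and 24.9 FPKM in the ventricles. It was at 127, 66.0 and 101 FPKM in the atrium-like parts (2.09 ± 0.33, adjusted p = 0.00723) and at 43.7, 39.9 and 80.0 FPKM in the ventricle-like parts (1.20 ± 0.30, adjusted p = 0.0288). The call in the ventricle-like parts was lost in at least 1 of the fits that left out 1 library. The gene overlaps Nqo2 and Ripk1 on the opposite strand. Its neighbour Serpinb6b was at 5.97 to 8.15 FPKM in E11.5H, with the chambers overlapping. It was at 43.5, 10.3 and 56.7 FPKM in the atrium-like parts (2.52 ± 0.64, adjusted p = 0.0277) and at 16.3, 7.62 and 73.7 FPKM in the ventricle-like parts (2.11 ± 0.82, adjusted p = 0.101, not called). The call in the atrium-like parts was lost in at least 1 of the fits that left out 1 library. Serpinb6b was thus highest in the libraries with the most endodermal RNA. Epithelial markers were high there too, with 10252 and 8318 CPM over 10 gut markers in atrium-like parts 1 and 3 and 5221 CPM in ventricle-like part 3, against 1101 to 2296 CPM in the other organoid libraries and 125 to 177 CPM in E11.5H.

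Serpinb9 itself, the granzyme B inhibitor, was present in the embryo, as was Serpinb9b, while Serpinb9c to Serpinb9h were near 0 there. It was at 5.64, 5.07 and 4.36 FPKM in the atria and 3.72, 2.77 and 2.21 FPKM in the ventricles, a log2 difference of 0.73 ± 0.20 (adjusted p = 0.036) that was under the fold limit. In the ventricle-like parts it was at 11.3, 6.67 and 14.7 FPKM and was called (1.83 ± 0.35, adjusted p = 0.0141), while in the atrium-like parts, at 5.59, 5.92 and 7.37 FPKM, 0.50 ± 0.23 was not (adjusted p = 0.14). The call was lost in at least 1 of the fits that left out 1 library. The copies Serpinb9c to Serpinb9h had no summed level in 5 E11.5H libraries and 0.107 FPKM in atria replicate 3. Their sum, which was singled out after the values were seen, was 1.04, 0.284 and 28.8 FPKM in atrium-like parts 1, 2 and 3 and 2.52, 31.2 and 7.71 FPKM in ventricle-like parts 1, 2 and 3. The high libraries, atrium-like part 3 and ventricle-like part 2, are on opposite sides of the endodermal and fibroblast orders above. Serpinb9e led the copies, with 0.563, 0.276 and 15.9 FPKM in the atrium-like and 1.16, 15.1 and 3.51 FPKM in the ventricle-like parts. Against ventricles at 0, with 3 fragments per library as the limit, Serpinb9e was at least 110-fold higher in the mean of the ventricle-like parts (adjusted p = 0.02), and Serpinb9f at least 47.1-fold (adjusted p = 0.0261). In the mean Serpinb9g was at least 29.6-fold higher (adjusted p = 0.0318) and Serpinb9c at least 17.3-fold (adjusted p = 0.0221). These means rest largely on ventricle-like part 2, without which the bounds are 41.3-fold for Serpinb9e, 17.0-fold for Serpinb9f, 13-fold for Serpinb9g and 8.03-fold for Serpinb9c, and all 4 calls were lost without any of the ventricles. With the copies summed, 16 serpins were called in this comparison in place of 19, since the 4 called copies count as 1. Serpinb9c is less alike than the other 3, so this sum joins more than near-identical copies.

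Serpinb2 (PAI-2, which blocks urokinase) was almost limited to a pair of organoid libraries. It was at 49.6, 11.2 and 0.271 FPKM in the ventricle-like parts and at 0.102, 2.52 and 0 FPKM in the atrium-like parts, with 0 to 0.145 FPKM in E11.5H. The log2 fold change over ventricles was 7.26 ± 1.82 (adjusted p = 0.0306), and the call was lost without ventricle-like part 1 (5.33, adjusted p = 0.0607) and without any of the ventricles (adjusted p from 0.116 to 0.121). Serpinb8, an inhibitor of furin-type proteases, was at 5.26, 1.91 and 2.03 FPKM in the ventricle-like parts, above all other libraries (at most 0.816 FPKM), and was called there at 2.90 ± 0.69 (adjusted p = 0.026). The call was lost without ventricle-like part 1 (2.23, adjusted p = 0.0706) and without any of the ventricles. It had the smallest unadjusted p between the organoid parts, with a log2 difference of -2.77 ± 0.74 (adjusted p = 0.75). The other serpins at an unadjusted p under 0.05 there were Serpinb1a (1.89 ± 0.64, adjusted p = 0.75) and Serpinb6a (1.07 ± 0.44, adjusted p = 0.75), both with the higher mean in atrium-like parts. None of these was called between the organoid parts. Serpinb1c, a weakly expressed copy near Serpinb1a, was at 0.726, 0.651 and 0.193 FPKM in the ventricle-like parts and at most 0.0585 FPKM in the ventricles (4.12 ± 1.13, adjusted p = 0.0391), a call that held in the fit without ventricle-like part 3 and in no other that left out 1 library. Serpinb5, Serpinb10 and Serpinb11, which are epithelial or blood cell serpins, were at most 0.0648 FPKM in E11.5H and reached 1.02, 0.385 and 7.51 FPKM in single ventricle-like parts.

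Serpini1 (neuroserpin, an inhibitor of tissue plasminogen activator made mainly by neurons, chr3:75557493-75642523) was at 0.258, 0.468 and 0.534 FPKM in the atria and 0.590, 0.693 and 0.309 FPKM in the ventricles of E11.5H. It was at 3.38, 11.1 and 0.904 FPKM in the ventricle-like parts, called at 3.17 ± 0.92 (adjusted p = 0.0458), and at 0.562, 3.97 and 0.552 FPKM in the atrium-like parts (2.08 ± 0.86, adjusted p = 0.113). Neural markers had the same 3 libraries on top, with 217, 199 and 1009 CPM summed over 8 genes in atrium-like part 2 and ventricle-like parts 1 and 2, against 4.29 to 29.0 CPM in the other organoid libraries and 30.4 to 40.7 CPM in E11.5H. The call was lost without ventricle-like part 1 or 2 (adjusted p = 0.0772 and 0.0816) and without any of the ventricles (adjusted p from 0.132 to 0.153).

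Library by library, every organoid part had more serpins above than below the embryonic range. The number of the 43 expressed serpins above the highest of the 6 E11.5H libraries, in CPM, was 27 in atrium-like part 1 (62.8%, against 38% of all 16558 expressed genes), 31 in part 2 (72.1%, against 38.9%) and 35 in part 3 (81.4%, against 38.8%). It was 36 in ventricle-like part 1 (83.7%, against 37.3%), 29 in part 2 (67.4%, against 38%) and 35 in part 3 (81.4%, against 37.9%). Below the lowest E11.5H library were 2, 1 and 2 serpins in atrium-like parts 1, 2 and 3, where the shares of all genes were 37.8%, 30.1% and 34.8%, and 1, 2 and 2 in ventricle-like parts 1, 2 and 3, where they were 31.1%, 31.3% and 30.9%. Those below were Serpinh1 (atrium-like parts 1 and 3, ventricle-like part 3), Serpinf1 (atrium-like part 1), Serpinb6c (ventricle-like part 2) and Serpine3 (5 libraries). Serpinb6c had 1 fragment in ventricle-like part 2 and 1 in ventricles replicate 2, so it was below by library scaling only. A serpin that passed the expression limit through organoid libraries alone is above the embryo in some of them by selection, and 27 of the 43 did not reach it in E11.5H. Of the 16 that did, 8, 14 and 10 were above the embryo in atrium-like parts 1, 2 and 3 (50%, 87.5% and 62.5%, against 34.9%, 34.7% and 35.3% of the 14601 genes expressed in E11.5H). In ventricle-like parts 1, 2 and 3 they were 14, 12 and 11 (87.5%, 75% and 68.8%, against 33.7%, 34.8% and 34.3%). A serpin with no fragment in the embryo cannot fall below it, and 14 of the 43 (32.6%) were at 0 in all E11.5H libraries, against 2.03% of all expressed genes.

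**Figure D5:**
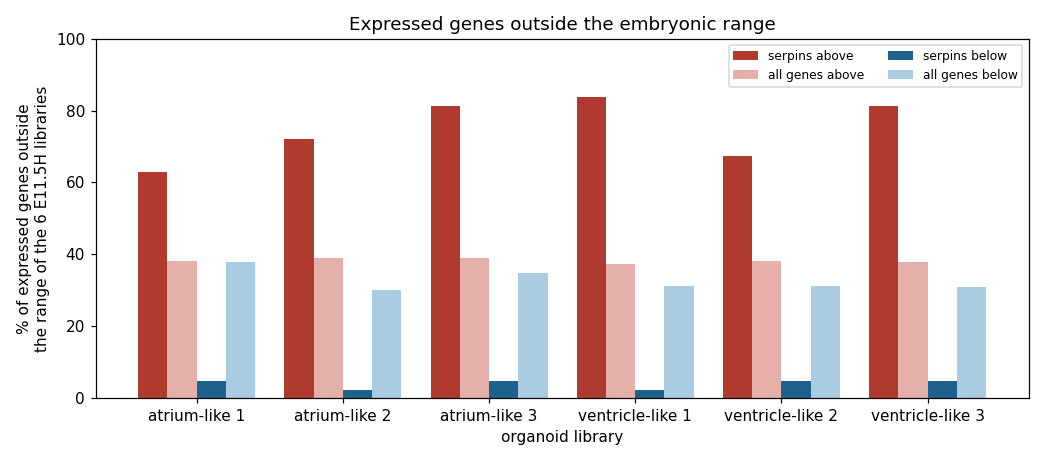
Share of expressed genes above or below the range of the 6 E11.5H libraries in each organoid library, for the 43 serpins (dark bars) and all 16558 expressed genes (light bars), in % from 0. Serpins above the range make up 62.8% to 83.7% and all genes 37.3% to 38.9%.

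The serpins above the embryo in all 6 organoid libraries were 10 of 43 (23.3%, against 14.5% of all expressed genes), and 0 of 43 were below it in all 6 (against 13.8%). Among the 16 expressed in E11.5H, 6 were above it in all 6 (37.5%, against 13.1% of genes expressed there) and 0 were below it (against 15.6%). The 10 of 43 included Serpina1b, Serpina3g, Serpina3i, Serpina3n, Serpinb1a, Serpinb6a, Serpinb9, Serpinb9b and Serpinb9e, from the liver-type, clade B and other clade A, E or G classes. Serpina1b, Serpina3i, Serpina3n and Serpinb9e did not reach the expression limit in E11.5H. By class, 10, 10 and 12 of the 12 expressed liver-type serpins were above the embryo in atrium-like parts 1, 2 and 3, and 8, 4 and 10 in ventricle-like parts 1, 2 and 3. None of the 12 reached the expression limit in E11.5H and 6 were at 0 there, so a few fragments sufficed. In atrium-like part 2, Serpina1d counts as above with 1.54 fragments and Serpina1c with 2.64. Of the 18 clade B serpins, 12, 10 and 15 were above the embryo in the atrium-like and 17, 15 and 18 in the ventricle-like parts. Of these 18, 6 reached the limit in E11.5H and 7 were at 0 there. Of all expressed genes, 37.3% to 38.9% were above the embryo in an organoid library.

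The proteases and receptors that serpins act on or with were counted as a list of 27 genes. In the atrium-like parts 10 of 16 tested were called higher and 1 lower, in the ventricle-like parts 9 of 15 higher and 0 lower, where 16% and 8.81%, and 11.6% and 7.35%, of all genes tested were higher and lower. The other 11 and 12 genes of the list had too few counts to be tested. Only 10 of the 27 had enough counts to be tested between the embryonic chambers. The rest could enter mainly through high organoid values, so these shares are not a measure of how the list moved. Between the organoid parts 0 of 19 were called. Between atria and ventricles of E11.5H 1 of 10 was higher and 3 were lower in atria. Plaur, the urokinase receptor, was higher in both organoid parts, at 5.12 ± 0.33 (adjusted p = 0.00123) and 3.87 ± 0.25 (adjusted p = 0.00118), and F3 (tissue factor) at 6.68 ± 0.91 (adjusted p = 0.0052) and 3.35 ± 0.37 (adjusted p = 0.00309). Plat, the tissue plasminogen activator blocked by Serpini1, was not called in either (-0.40 ± 0.48, adjusted p = 0.56, and 0.32 ± 0.49, adjusted p = 0.656). Thbd, the thrombin receptor of vessel lining, was the gene called lower in the atrium-like parts (-2.15 ± 0.61, adjusted p = 0.0399), where the 10 endothelial markers summed to 44.8 to 278 CPM, against 928 to 1050 CPM in the atria. In the ventricle-like parts, where these markers summed to 73.4 to 209 CPM against 995 to 1031 CPM in the ventricles, Thbd was at 1.33 ± 0.68 and was not called (adjusted p = 0.185).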

How the data were processed

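RNA of 12 samples was sequenced, 3 in each of 4 groups, and per the labels the libraries were built with an Illumina TruSeq RNA kit from total RNA. Per the submitters' notes, STAR and build mm10 were used for mapping. The authors deposited an expected count of fragments per gene, not normalized, with FPKM values beside it. The counting tool, tool versions, annotation release and use of strand are not given in the sources used here. Labels give separate replicates without naming separate litters or cultures, so p-values measure the spread between these samples.

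Expected counts were rounded to whole numbers and tested in edgeR 4.0.16 (R 4.3.3) with TMM factors, filterByExpr at a minimum count of 10, and the quasi-likelihood test. Each pair of groups was fitted alone and the interaction on all 12 libraries. SE was computed as the size of the log2 fold change divided by the square root of the F statistic. The script was tested on simulated data. DESeq2 1.42.0, other scalings and filters, a replicate block and leaving out libraries were alternatives. FPKM was used as deposited, with no test. Per-library values were given for the 6 members of each class with the highest mean FPKM and for those called between chambers; other members shown by library were picked after their values were seen. Lower bounds of fold use 3 fragments per library, at the shallowest library of the group at 0, and they and the counting interval cover counting error only. The members, lists and tests were chosen with earlier results of these data known. Sequences were read from RefSeq windows on GRCm38.p6 and GENCODE M21 transcripts, and identity was computed with Biopython local alignment. The table holds annotation columns beside the values, and no column of the authors' own comparisons was used. Counts over the family cover all members, of which 1 is not reported here by itself.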

Additional observations from a re-analysis of the deposited data

How the results depend on the processing

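Counts of called serpins kept within 1.5 times of the reported ones under the other scalings, filters and DESeq2. For the E11.5H chambers the count was 3 with no fold change limit, 0 with all 12 libraries in 1 fit and 0 to 1 when 1 library was left out. It was 5 to 19 in the atrium-like and 5 to 21 in the ventricle-like parts when 1 library was left out, and 0 to 1 in the interaction. Over all genes, these fits called 1662 to 5495 in the atrium-like and 1116 to 3725 in the ventricle-like parts. With the replicate block 0 serpins were called between atria and ventricles and 11 in the ventricle-like parts. The labels do not say that a number marks one heart or organoid. Same-numbered libraries correlated at 0.00894 to 0.0454 in E11.5H. For numbers 1, 2 and 3 of the organoid parts the values were 0.0146, 0.585 and 0.367. Differently numbered organoid parts correlated at -0.670 to 0.435, with the highest value for atrium-like part 1 and ventricle-like part 3. Pairing was thus not assumed, though 2 of the 3 organoid pairs deviated together. With the replicate block 0 serpins were called between the organoid parts. The number of serpins below the embryonic range became 1 for atrium-like parts 1 and 3 and ventricle-like parts 2 and 3 when a 2-fold distance was asked for, and 1 for ventricle-like part 2 with library totals. The log2 fold change of Serpinh1 was -0.60 to 0.32 in the atrium-like and -0.15 to 0.50 in the ventricle-like parts when 1 library was left out, so its sign changed without atria replicate 2, atrium-like part 1 or 3, or ventricle-like part 1. The cause was not tested. Summing the Serpina1 copies and Serpinb9c to Serpinb9h was chosen after seeing the data. Depth limits the embryonic values of most liver-type and Serpinb9 copies to a few fragments per library.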
